A study of Saccharomyces cerevisiae with 18 samples.

Results

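A set of 41 nuclear genes of the yeast respiratory chain and ATP synthase was followed across 6 strains of budding yeast. The strains differ in the ubiquitin-conjugating enzyme Rad6 or its partner Bre1. Earlier results of these data were known when the members were chosen. The members were taken from a list of systematic gene names, by the complex each protein belongs to and not by a cut on measured values. They comprise 5 genes of succinate dehydrogenase, 9 of complex III, 8 of complex IV, both cytochrome c genes, NDI1, 14 genes of ATP synthase (5 of the catalytic F1 part and 9 of the stalk and membrane part) and 2 genes for inhibitors of that enzyme. The count table held 5746 genes, of which 5630 had enough counts to be tested, and all 41 members were among those. Poly(A)-selected RNA was sequenced from 3 separately grown cultures of each strain, which gave 18 libraries. All strains are labelled mating type a with the markers ura3-52, his3, trp1Δ and a leu2 gene with the mutations 3 and 112, and each carries a centromeric plasmid marked with TRP. In the reference strain, called WT here, the chromosomal RAD6 is replaced by KanMX and the plasmid supplies RAD6 with a 3V5 tag. The P43L, P47T and E49K strains have the same deletion and a tagged plasmid copy in which the named residue of the beta-turn on the back of Rad6 is replaced. The rad6Δ strain has the deletion with the empty plasmid pRS314. The bre1Δ strain carries KanMX in place of BRE1, holds the empty plasmid and keeps its own untagged chromosomal RAD6, so that against WT its Rad6 also differs in origin and lacks the tag. Cultures were grown at 30 °C in synthetic medium without tryptophan.

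Rad6 works with the ligase Bre1 to attach ubiquitin to histone H2B, a mark placed along transcribed genes. The respiratory chain of yeast passes electrons from NADH (through Ndi1) and succinate to ubiquinone, complex III, cytochrome c and complex IV, and the proton gradient built on the way drives ATP synthase. Its subunits come from the nuclear and the mitochondrial genome, and many of the nuclear genes are activated by the Hap2/3/4/5 complex, which binds CCAAT, and by the heme-responsive factor Hap1, and are held low on glucose.

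Both deletion strains carried the change their labels name, whereas counts per gene cannot show the substitutions. RAD6 stood at 3.75, 4.36 and 4.77 CPM in the rad6Δ libraries against 157, 147 and 143 in WT (CPM stands for a gene's counts relative to the library's total after trimmed-mean scaling, per 1000000), and BRE1 at 2.12, 1.25 and 1.78 CPM in bre1Δ against 136, 147 and 139 in WT. RAD6 was also lower in bre1Δ, at 106, 104 and 93.4 CPM (log2 fold change ± SE -0.56 ± 0.09, adjusted p = 6.54e-05 by edgeR's quasi-likelihood test with Benjamini-Hochberg adjustment over all genes tested, passed at under 0.05 here and throughout), where it is the chromosomal copy. RAD6 also differed among the strains with a plasmid copy. It was higher in E49K than in WT (0.23 ± 0.09, adjusted p = 0.0499). It did not pass against WT in P43L (-0.24 ± 0.09, adjusted p = 0.0770) or P47T (0.12 ± 0.09, adjusted p = 0.348). Against P43L it was higher in E49K (0.47 ± 0.09, adjusted p = 5.85e-04) and in P47T (0.36 ± 0.09, adjusted p = 0.00445). Library totals ran from 5065845 to 11396251 counts, and the lowest count of any member in any library was 99. P43L replicate 2, bre1Δ replicate 3 and P47T replicate 3 stood apart from the other libraries of their strains on the second principal component of all genes. None of the 41 members is overlapped by another annotated gene, and none shares a 50-base stretch with another place in the genome, 50 bases being the read length.

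In WT all 41 members lay above the median of the 5513 nuclear open reading frames, which was 39.9 CPM per kb of coding length. The members' median was 374 CPM per kb. QCR7, a small subunit of complex III, was the highest at 1139.6 ± 124 CPM per kb (mean ± SD, n = 3), followed by ATP14 of the ATP synthase stalk at 858 ± 15.01 and QCR9 of complex III at 777 ± 44.99. SDH1, the flavoprotein of succinate dehydrogenase, was the lowest at 54.9 ± 2.35, next to the other succinate dehydrogenase genes SDH5 at 82.4 ± 9.66 and SDH4 at 85.4 ± 3.09. Of the 40 neighbouring pairs in this order, 27 were no further apart than the larger of their SDs, so most of the middle of the order is not resolved. Genes of the same complex differed in level. Within complex III, QCR7 stood at 1140 and CYT1 at 193 CPM per kb, and within F1, ATP2 at 615 ± 28.4 and ATP3 at 374 ± 11.5.

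**Figure D1:**
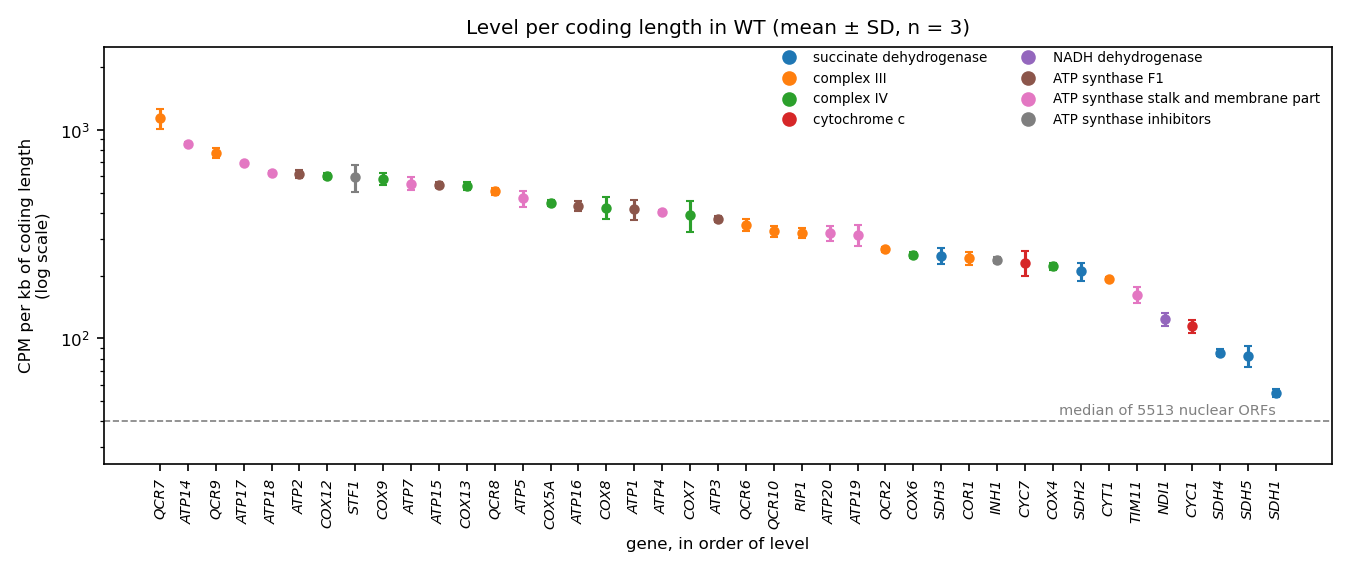
Level of each of the 41 genes per coding length in WT (mean ± SD over 3 libraries, log axis), in order of level and coloured by complex; the dashed line is the median of 5513 nuclear open reading frames. All 41 genes lie above the line, from QCR7 at 1140 down to SDH1 at 54.9 CPM per kb.

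The E49K strain had the most members past the test against WT, and all of them were lower. In E49K 29 of the 41 fell and 0 rose, where 31.3% of all genes tested passed the same threshold (16.1% lower and 15.2% higher). The median log2 fold change of the members was -0.40, against -0.01 over all genes tested, and 40 of 41 were below 0. P47T had 23 lower and 0 higher, where 27.9% of all genes passed (13.7% lower), with a member median of -0.34. P43L had 7 lower and 1 higher, where 12.1% of all genes passed (6.18% lower and 5.95% higher), with a median of -0.07. In the strain with no BRE1, 14 members were lower and 1 higher, where 44.4% of all genes passed (22.1% lower), with a median of -0.16. The strain with no RAD6 had 6 lower and 3 higher, where 49.7% of all genes passed (24.8% lower), with a median of 0.00. At an unadjusted p under 0.05 there were 33 lower and 0 higher in E49K and 27 lower and 0 higher in P47T. How many of all genes passed unadjusted was not counted, here or in the comparisons below. DESeq2 called 29 members lower and 0 higher in E49K, where 872 of all 5630 genes were lower and 873 higher. In P47T it called 24 members lower and 0 higher, where 741 of all genes were lower and 823 higher. The shares of members called in rad6Δ, 22.0%, and in bre1Δ, 36.6%, were thus below the shares of all genes called. That in E49K, 70.7%, was above the share of all genes. In bre1Δ the share of members called lower, 34.1%, was above the 22.1% of all genes. All 5 comparisons use the same 3 WT libraries. With scaling by library totals alone the split of all genes called went towards lower (407 higher and 1297 lower in P47T, 538 and 952 in E49K, 734 and 1699 in bre1Δ, 176 and 353 in P43L), the members' counts became 28 in P47T, 31 in E49K and 22 in bre1Δ, and no further member was higher. Each is read from relative abundance, so an equal change of every transcript in a cell would not be seen.

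**Figure D2:**
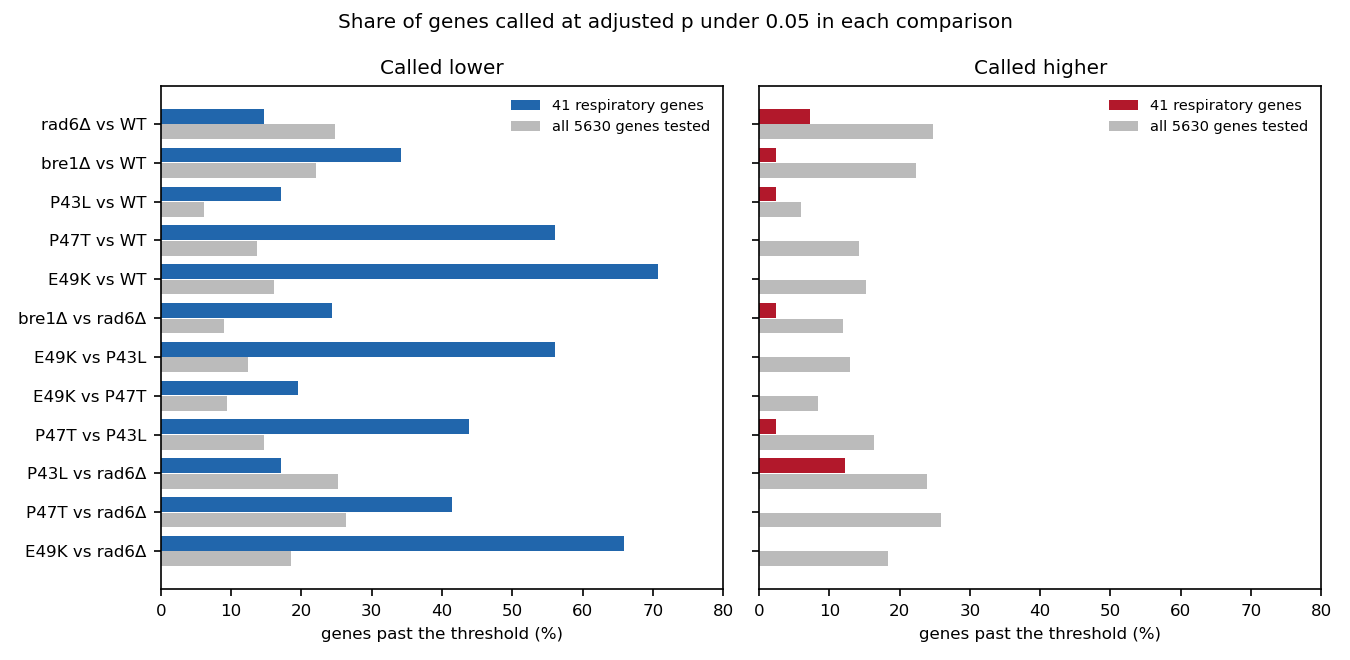
Percentage of genes called lower (left) and higher (right) at an adjusted p under 0.05 in each of 12 comparisons, for the 41 respiratory genes (coloured bars) and for all 5630 genes tested (grey bars). The members' share called lower reaches 70.7% in E49K and 56.1% in P47T against WT, with no member called higher in either.

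The summed level of the 41 members gave the same order without a test on single genes. It was 7999 to 8293 CPM in the WT libraries, 7971 to 8167 in rad6Δ and 7861 to 8511 in P43L, which overlap one another. It was 6982 to 7844 CPM in bre1Δ, 6674 to 6930 in P47T and 6439 to 6505 in E49K. The E49K range lay below that of every other strain, and those of P47T and bre1Δ below that of WT.

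**Figure D3:**
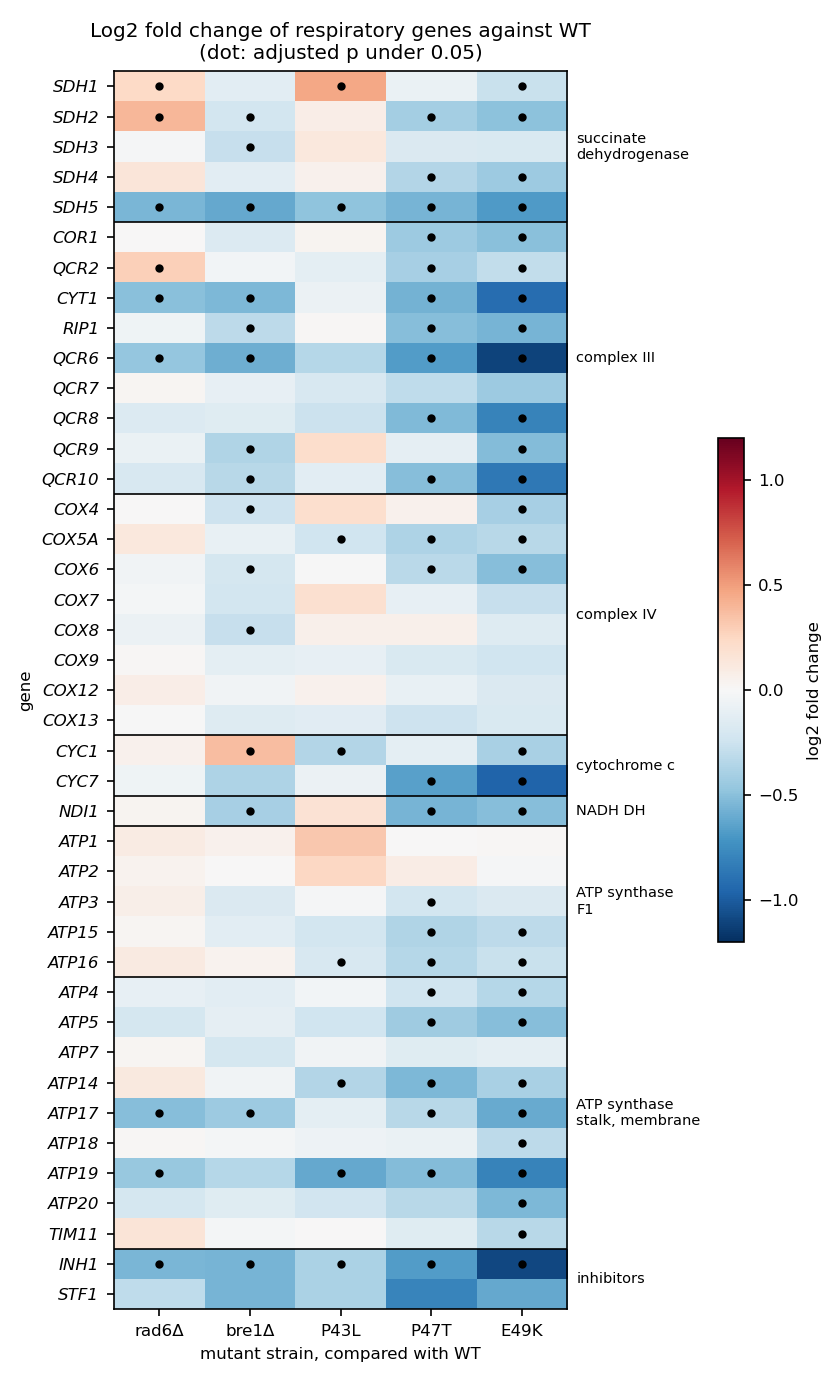
Log2 fold change of each of the 41 genes (vertical axis, grouped by complex) in the 5 mutant strains against WT (horizontal axis); blue is lower, red is higher, and a dot marks an adjusted p under 0.05. Blue fills the E49K and P47T columns except at ATP1 and ATP2, with COX4 and COX8 also slightly above 0 in P47T, while the rad6Δ column is pale with red at SDH1, SDH2 and QCR2.

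The value after ± in a log2 fold change is its standard error. Over all genes tested 16.1% were lower in E49K, the share to set beside the counts by complex that follow. In complex III, which passes electrons from ubiquinol to cytochrome c, 8 of the 9 genes fell in E49K. QCR6 (YFR033C, chrVI:224326-224769 in R64, as are the positions that follow), the acidic hinge protein, read 79.8, 69.2 and 68.6 CPM in the E49K libraries against 160.1, 164 and 144 in WT. The groups did not overlap, and every E49K library was below every library of the other 5 strains except 1: the lowest bre1Δ library read 78.8, under the highest E49K library. Its log2 fold change was -1.11 ± 0.14 (adjusted p = 1.98e-05), or 2.16-fold lower, the lowest of all members. CYT1 (YOR065W, chrXV:447439-448368), the cytochrome c1 subunit, read 94.7, 97.0 and 94.4 CPM in E49K against 181, 182 and 175 in WT, a log2 fold change of -0.91 ± 0.07 (adjusted p = 1.53e-08). These E49K values lay within 3 CPM of one another and below those of all other strains. QCR10 fell by 0.86 and QCR8 by 0.81 on the log2 scale. RIP1, the Rieske iron-sulfur protein, QCR9 and the core protein gene COR1 fell by 0.56, 0.52 and 0.51, and QCR2, the other core protein, by 0.30. QCR7, the member that did not pass, had the largest error of the complex, at -0.44 ± 0.24 (adjusted p = 0.19).

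Both cytochrome c genes fell in E49K. CYC7 (YEL039C, chrV:79636-79977) encodes iso-2, the form raised at low oxygen, and CYC1 (YJR048W, chrX:526335-526664) encodes iso-1, the main form in aerobic cells. CYC7 read 46.5, 34.6 and 40.1 CPM against 66.5, 86.3 and 83.6 in WT, a log2 fold change of -0.96 ± 0.22 (adjusted p = 0.00465). CYC1 read 30.0, 28.0 and 27.9 CPM against 37.9, 34.7 and 40.5, a log2 fold change of -0.39 ± 0.08 (adjusted p = 7.92e-04). Neither gene's E49K values overlapped those of WT, and per coding length CYC7 stood at 230.4 ± 31.4 and CYC1 at 114 ± 8.72 CPM per kb in WT (mean ± SD, n = 3).

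Succinate dehydrogenase links the citric acid cycle to the chain, and 4 of its 5 genes fell in E49K. SDH5, which is needed to attach flavin to Sdh1, read 28.0, 23.6 and 23.4 CPM against 37.8, 37.4 and 45.8 in WT and had a log2 fold change of -0.68 ± 0.13 (adjusted p = 6.92e-04). SDH2 (YLL041C, chrXII:53131-53931), the iron-sulfur subunit, read 121, 118 and 119.8 CPM against 186, 152 and 166, at -0.49 ± 0.08 (adjusted p = 9.51e-05). The membrane anchor gene SDH4 fell by 0.44 and SDH1 by 0.27, and the other anchor gene SDH3 was at -0.18 ± 0.08 (adjusted p = 0.077). NDI1 (YML120C, chrXIII:28266-29807), the internal NADH dehydrogenase that stands in yeast in place of a multi-subunit complex I, read 138, 125 and 137 CPM against 205, 181 and 184 and fell by 0.51 (adjusted p = 5.96e-05). Its E49K and WT values were separated by a wide gap.

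Complex IV, the terminal oxidase, moved least among the electron carriers: 3 of its 8 nuclear genes fell in E49K. COX6 read 76.1, 76.1 and 83.0 CPM against 108, 113 and 116 in WT (log2 fold change -0.52 ± 0.08, adjusted p = 9.38e-05). COX4 fell by 0.40 and COX5A by 0.34. COX7, COX8, COX9, COX12 and COX13 ran from -0.28 to -0.16, with adjusted p-values from 0.0522 for COX9 to 0.239 for COX12, and did not pass.

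The genes of ATP synthase did not all move alike in E49K, within F1 or within the stalk and membrane part. Neither gene of the catalytic subunits passed: ATP1 (alpha, YBL099W, chrII:37053-38690) read 640.0, 716 and 709 CPM against 769, 653 and 625, and ATP2 (beta, YJR121W, chrX:647607-649142) 932, 952 and 923 against 992, 906 and 937, with log2 fold changes of 0.01 ± 0.11 and -0.01 ± 0.09. The groups overlapped for both. The small F1 subunits ATP15 (epsilon) and ATP16 (delta) fell by 0.32 and 0.27, and ATP3 (gamma) stood at -0.17 ± 0.07 (adjusted p = 0.0792). Of the 9 stalk and membrane genes, 8 fell. ATP19 (subunit k) read 41.7, 32.3 and 37.2 CPM against 56.8, 66.8 and 71.0, a log2 fold change of -0.80 ± 0.14 (adjusted p = 4.40e-04). ATP17 (subunit f) read 132, 134 and 151 against 209, 214 and 210.0, at -0.60 ± 0.08 (adjusted p = 3.17e-05). ATP20 and TIM11, whose products hold the enzyme's dimers together, fell by 0.54 and 0.33, ATP5 by 0.51, ATP14 by 0.39, ATP4 by 0.34 and ATP18 by 0.32, and ATP7 was at -0.11 ± 0.10 (adjusted p = 0.423).

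The inhibitor gene INH1 lies at chrIV:135179-135436, and its product blocks ATP hydrolysis by the enzyme when the proton gradient is lost. INH1 read 29.4, 24.7 and 31.9 CPM in E49K against 59.3, 63.1 and 61.4 in WT, a log2 fold change of -1.10 ± 0.11 (adjusted p = 5.43e-07) or 2.14-fold lower, with no overlap. STF1, a related inhibitor, read 115, 91.9 and 97.5 against 165, 171 and 129; its groups did not overlap either, but its spread was wide (log2 fold change -0.62 ± 0.28, adjusted p = 0.118).

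Of the 29 calls in E49K, 25 held when each of the 6 libraries was left out in turn. ATP18 passed only with all 6 libraries. TIM11 did not pass without WT replicate 1 or 3 or E49K replicate 1 or 2, SDH1 not without WT replicate 1 or 3 or E49K replicate 2 or 3, and ATP15 not without WT replicate 3 or E49K replicate 3, the highest adjusted p being 0.155 for TIM11.

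**Figure D4:**
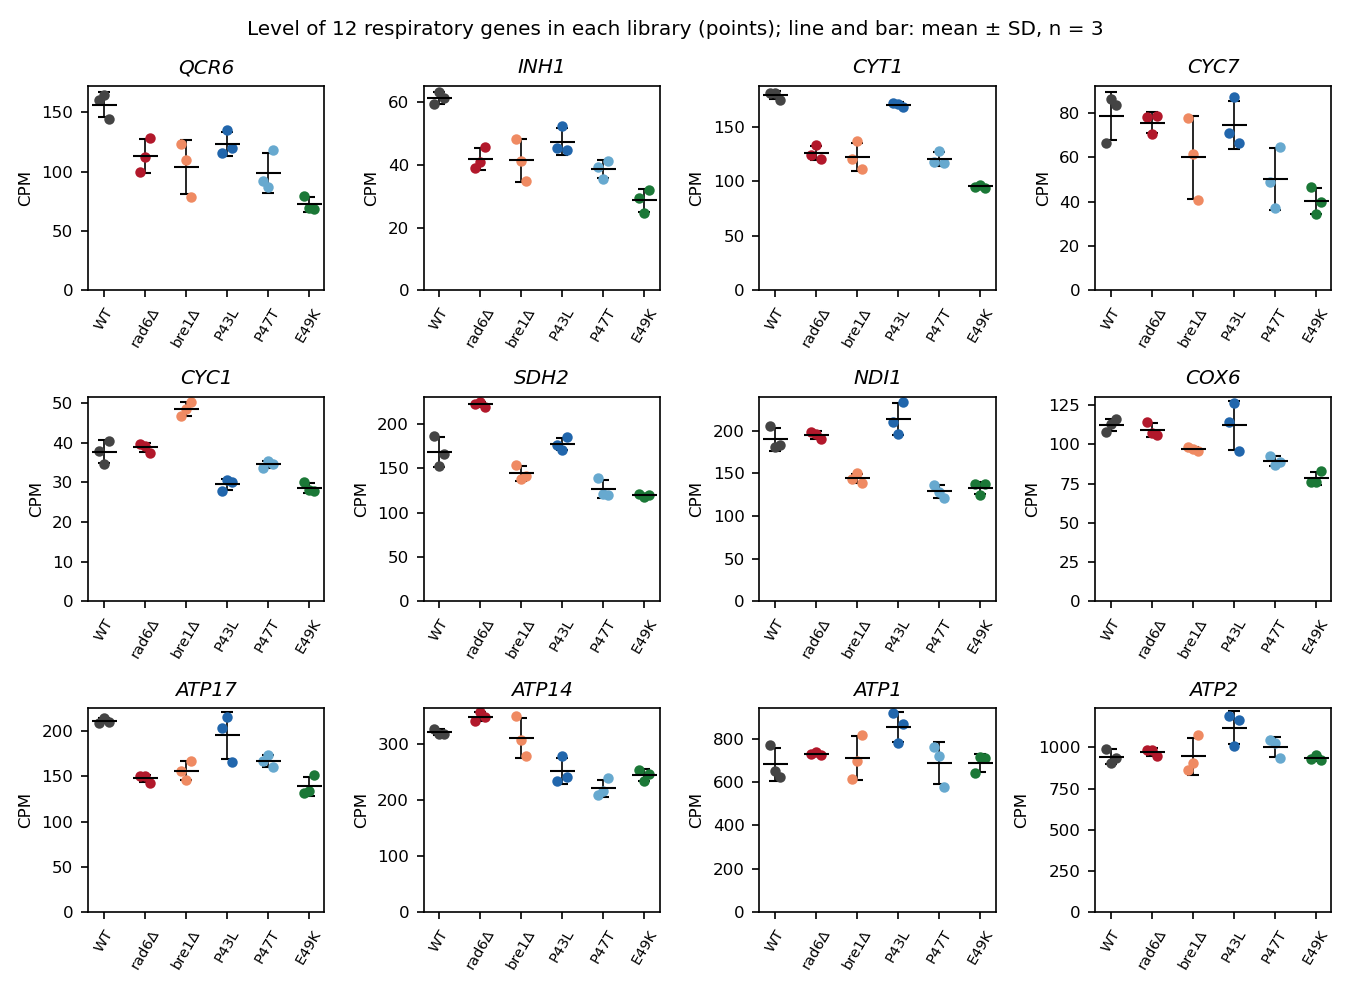
CPM of 12 respiratory genes in every library of the 6 strains (points), with the mean ± SD of 3 libraries (line and bar). QCR6, INH1 and CYT1 are lowest in E49K, SDH2 is highest in rad6Δ and CYC1 in bre1Δ, and ATP1 and ATP2 overlap between WT and E49K.

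The stretch upstream of the coding region is shown for the 3 members with the lowest and the 2 with the highest fold change in E49K, because the Hap2/3/4/5 complex binds CCAAT upstream of many respiratory genes. Each window covers bases 300 to 101 before the start codon in the R64 reference genome, written 5′ to 3′ on the gene's strand. Capitals mark CCAAT on either strand, so that ATTGG is CCAAT on the other one. QCR6 (chrVI:224870-225069, minus strand) holds 2 matches, INH1 (chrIV:134879-135078, plus strand) 1, CYC7 (chrV:80078-80277, minus strand) 0, ATP2 (chrX:647307-647506, plus strand) 2 that overlap, and ATP1 (chrII:36753-36952, plus strand) 1.
QCR6: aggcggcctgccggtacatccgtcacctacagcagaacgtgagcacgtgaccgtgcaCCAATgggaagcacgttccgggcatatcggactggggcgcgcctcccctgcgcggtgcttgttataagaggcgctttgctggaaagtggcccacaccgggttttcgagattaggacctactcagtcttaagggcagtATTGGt
INH1: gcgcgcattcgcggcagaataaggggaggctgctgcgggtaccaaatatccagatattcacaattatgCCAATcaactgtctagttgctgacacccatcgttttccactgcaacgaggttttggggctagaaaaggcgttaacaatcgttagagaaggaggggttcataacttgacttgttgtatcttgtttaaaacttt
CYC7: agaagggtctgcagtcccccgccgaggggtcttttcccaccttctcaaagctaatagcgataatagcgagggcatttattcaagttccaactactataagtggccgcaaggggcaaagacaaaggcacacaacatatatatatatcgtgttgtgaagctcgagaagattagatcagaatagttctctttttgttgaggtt
ATP2: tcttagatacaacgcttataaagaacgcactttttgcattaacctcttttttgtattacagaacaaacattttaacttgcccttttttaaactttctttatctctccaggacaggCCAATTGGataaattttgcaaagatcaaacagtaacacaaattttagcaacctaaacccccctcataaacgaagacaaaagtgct
ATP1: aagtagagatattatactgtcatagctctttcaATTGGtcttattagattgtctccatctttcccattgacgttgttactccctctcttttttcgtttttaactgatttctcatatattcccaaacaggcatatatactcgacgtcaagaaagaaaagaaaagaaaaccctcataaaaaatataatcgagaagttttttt

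Over the full 300 bases before the start codon, CCAAT on either strand was present for 34 of the 41 members (82.9%), against 2377 of 5605 nuclear open reading frames (42.4%). The longer form ACCAATNA, which contains CCAAT, was present for 15 of 41 members (36.6%) and for 298 of 5605 (5.32%). CCAAT was present for 23 of the 29 members that fell (79.3%) and 11 of the 12 that did not pass (91.7%), and ACCAATNA for 9 of 29 (31.0%) and 6 of 12 (50.0%). The difference between these shares was not tested. These are letter matches in a fixed window and not measured binding.

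P47T had the next most genes lower after E49K. Both are compared with the same WT libraries. ATP3 was at -0.22 ± 0.07 in P47T (adjusted p = 0.0362) and -0.17 ± 0.07 in E49K (adjusted p = 0.0792). Complex III had 7 of 9 genes lower, with QCR6 at 91.8, 86.6 and 118 CPM (log2 fold change -0.67 ± 0.13, adjusted p = 0.0015) and CYT1 at 118, 128 and 117 (-0.57 ± 0.07, adjusted p = 2.21e-05). Both lay below WT in all 3 libraries. INH1 read 39.2, 35.4 and 41.3 CPM (-0.67 ± 0.11, adjusted p = 1.79e-04) and NDI1 137, 129 and 122 (-0.56 ± 0.08, adjusted p = 4.08e-05), again with no overlap with WT. CYC7 had a log2 fold change of -0.65 ± 0.21 (adjusted p = 0.0365), whereas CYC1 was at -0.12 ± 0.08 (adjusted p = 0.258). Succinate dehydrogenase had 3 of 5 genes lower (SDH2, SDH4 and SDH5), complex IV 2 of 8 (COX5A and COX6), F1 3 of 5 (ATP3, ATP15 and ATP16) and the stalk and membrane part 5 of 9 (ATP4, ATP5, ATP14, ATP17 and ATP19). Over all genes tested 13.7% were lower in P47T. STF1 had the lowest fold change, -0.80 ± 0.29, without passing (adjusted p = 0.0565), and COX4, COX8, ATP1 and ATP2 were slightly above 0. In P47T 17 of the 23 calls held in every run without 1 library. ATP4 and ATP15 did not pass without P47T replicate 2, ATP19 not without P47T replicate 1, CYC7 not without WT replicate 2 or 3 or P47T replicate 1 or 2, SDH4 not without WT replicate 1 or 3 or P47T replicate 1 or 2, and ATP3 not in 5 of 6 runs (all but that without P47T replicate 1).

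P43L had 8 members called against WT, in both directions. SDH1 rose, with 157, 128 and 151 CPM against 110.4, 101 and 104.71 in WT (log2 fold change 0.46 ± 0.09, adjusted p = 0.00262). All 3 libraries lay above WT, and this call held when each library was left out in turn. The 7 lower genes were ATP19 at -0.61 ± 0.14, SDH5 at -0.48 ± 0.13, INH1 at -0.38 ± 0.11, ATP14 at -0.35 ± 0.08, CYC1 at -0.35 ± 0.08, COX5A at -0.24 ± 0.07 and ATP16 at -0.20 ± 0.06, with adjusted p-values from 0.00825 for CYC1 to 0.0437 for ATP16. ATP14 read 236, 279.6 and 242 CPM against 328, 318 and 319 in WT, and CYC1 27.9, 30.6 and 30.0 against 37.9, 34.7 and 40.5, neither with overlap. No gene of complex III passed: QCR6 was at -0.35 ± 0.13 (adjusted p = 0.0914) and CYT1 at -0.07 ± 0.07. All 7 lower genes have coding regions under 600 bases, a class that stood at a median of -0.11 in P43L over all 926 such reading frames. The count depended on single libraries: 8 members passed with all libraries, 1 without P43L replicate 1, 2 without P43L replicate 3, 3 without WT replicate 2 and 3 without WT replicate 3, but 14 without P43L replicate 2. With P43L replicate 2, bre1Δ replicate 3 and P47T replicate 3 all left out, 18 members passed, 5 higher and 13 lower. How many of all genes passed in these runs is not given here, so the counts are not set against it.

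In rad6Δ the members split into a few that fell, a few that rose and a majority that did not pass. INH1 read 38.8, 40.98 and 45.6 CPM against 59.3, 63.1 and 61.4 in WT (log2 fold change -0.55 ± 0.11, adjusted p = 2.05e-04), ATP17 150.4, 150.2 and 143 against 209, 214 and 210.0 (-0.51 ± 0.08, adjusted p = 3.45e-05) and CYT1 124, 134 and 121 against 181, 182 and 175 (-0.51 ± 0.07, adjusted p = 6.01e-06). Each of these was below WT in all libraries. SDH5, QCR6 and ATP19 also fell, by 0.55, 0.47 and 0.45. SDH2 rose, reading 222, 224 and 219 CPM against 186, 152 and 166 (0.40 ± 0.08, adjusted p = 1.65e-04), as did QCR2 with 382, 356 and 344 against 288, 301 and 300.01 (0.28 ± 0.07, adjusted p = 0.00191). Every rad6Δ library was above every WT library for both. SDH1 rose by 0.24 (adjusted p = 0.0239), but did not pass with scaling by library totals alone. No gene of complex IV, cytochrome c or F1 passed, nor did NDI1, and the complex IV genes lay between -0.07 and 0.13. ATP19 did not pass without rad6Δ replicate 3, and SDH1 not without WT replicate 2 or 3 or rad6Δ replicate 1 or 3. A fit to the 6 libraries of these 2 strains alone called 14 members, 3 higher and 11 lower. In that fit 1476 of all 5609 genes tested were higher and 1552 lower.

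In bre1Δ most of the calls were lower and the changes modest. SDH5 had the lowest log2 fold change, -0.62 ± 0.14, with 28.0, 29.2 and 19.5 CPM against 37.8, 37.4 and 45.8 in WT (adjusted p = 0.00103). QCR6 read 123, 109.6 and 78.8 CPM (-0.58 ± 0.14, adjusted p = 0.00207), INH1 48.3, 41.1 and 34.8 (-0.55 ± 0.11, adjusted p = 3.49e-04) and CYT1 120.3, 137 and 111 (-0.54 ± 0.07, adjusted p = 5.71e-06). Their bre1Δ libraries were all below WT, with a wider spread than in rad6Δ for QCR6 and INH1. NDI1 read 143, 150.4 and 139 CPM and fell by 0.40 (adjusted p = 3.01e-04). CYC1 was the 1 member that rose, with 46.8, 48.5 and 50.4 CPM against 37.9, 34.7 and 40.5 (log2 fold change 0.37 ± 0.08, adjusted p = 5.83e-04) and no overlap. By complex, 5 of 9 complex III genes, 3 of 5 succinate dehydrogenase genes, 3 of 8 complex IV genes (COX4, COX6 and COX8) and 1 of 9 stalk and membrane genes (ATP17) were lower, and 0 of 5 F1 genes. Over all genes tested 22.1% were lower. Of the 15 calls, 10 held without each library in turn. QCR10 did not pass without bre1Δ replicate 2, SDH3 not without WT replicate 1 or bre1Δ replicate 3, COX8 not without WT replicate 1 or bre1Δ replicate 2, SDH2 not without WT replicate 1 or bre1Δ replicate 2 or 3, and COX6 not in 5 of 6 runs (all but that without WT replicate 1).

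The 2 deletions were then compared with each other, since Rad6 and Bre1 act as a pair on histone H2B. In bre1Δ 10 members were lower than in rad6Δ and 1 was higher, where 20.8% of all genes passed (8.92% lower and 11.9% higher). SDH2 had the largest difference, 154, 138 and 141 CPM against 222, 224 and 219 (log2 difference -0.62 ± 0.08, adjusted p = 6.30e-06), followed by NDI1 at -0.43 ± 0.08 (adjusted p = 3.60e-04) and SDH1 at -0.37 ± 0.09 (adjusted p = 0.00458). CYC1 was higher by 0.32 ± 0.08 (adjusted p = 0.00446). SDH2, NDI1 and CYC1 did not overlap between the strains. With scaling by library totals alone 15 members were lower and CYC1 did not pass. CYT1, QCR6, INH1, SDH5 and ATP17, which fell in both strains against WT, did not pass here: their log2 differences were -0.04 ± 0.07, -0.12 ± 0.14, -0.00 ± 0.11, -0.07 ± 0.14 and 0.07 ± 0.08. The count of 11 fell to 7 without rad6Δ replicate 1, to 6 without bre1Δ replicate 2 and to 6 without bre1Δ replicate 3. It was 5 in a fit to these 2 strains alone and 7 without the 3 libraries named above. The fit to these 2 strains called 459 of all 5607 genes tested higher and 289 lower.

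Among the 3 substitutions, E49K was lower than P43L at all 41 members. Of these 23 passed and 0 were higher, where 25.4% of all genes passed (12.4% lower). At an unadjusted p under 0.05 there were 29 lower and 0 higher. DESeq2 called 24 lower and 0 higher, where 744 of all 5630 genes were lower and 719 higher. CYC7 had the largest difference, -0.89 ± 0.22 (adjusted p = 0.00809). CYT1 read 94.7, 97.0 and 94.4 CPM in E49K against 172, 171 and 168 in P43L (-0.84 ± 0.07, adjusted p = 5.14e-08), QCR9 98.8, 104 and 124 against 175, 209 and 159.8 (-0.73 ± 0.10, adjusted p = 1.97e-05) and NDI1 138, 125 and 137 against 210.4, 197 and 234 (-0.68 ± 0.08, adjusted p = 2.10e-06). None of these overlapped. ATP1 and ATP2, which did not pass between E49K and WT, were lower in E49K than in P43L by 0.31 and 0.26 (adjusted p = 0.0439 and 0.0394). In the 6 runs that each left out 1 library, both calls passed in 1, that without P43L replicate 2.

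P47T was lower than P43L at 39 of 41 members, with 18 called lower and 1 higher, where 31.0% of all genes passed (14.7% lower and 16.3% higher). NDI1 differed most (-0.73 ± 0.08, adjusted p = 1.23e-06), then SDH1 (-0.54 ± 0.09, adjusted p = 1.11e-04), RIP1 (-0.53 ± 0.08, adjusted p = 1.11e-04) and CYT1 (-0.50 ± 0.07, adjusted p = 4.48e-05). The member called higher was CYC1 (0.23 ± 0.08, adjusted p = 0.0311), a call not made by DESeq2, which called 20 members lower and 0 higher, or with scaling by library totals alone, which gave 22 lower and 0 higher. Without P47T replicate 2 the count fell from 19 to 10, all lower. E49K and P47T differed at 8 members, all lower in E49K, where 17.8% of all genes passed (9.41% lower and 8.35% higher). At an unadjusted p under 0.05 there were 13 lower and 0 higher. DESeq2 called 8 lower and 0 higher, where 554 of all 5630 genes were lower and 476 higher. The 8 called by edgeR were COX4, QCR6, INH1, QCR9, QCR10, CYT1, CYC1 and ATP17. COX4 read 76.6, 76.6 and 83.4 CPM in E49K and 117, 108 and 97.6 in P47T, without overlap (-0.45 ± 0.07, adjusted p = 3.45e-04). The others ran from -0.44 for QCR6 to -0.27 for ATP17. That count was 3 without E49K replicate 2 and 2 when library totals alone were used for scaling.

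The substitutions were also set against rad6Δ, 3 comparisons added after the others had been seen, which share the rad6Δ libraries. E49K was lower than the strain with no Rad6 at all 41 members. Of these 27 passed, where 36.9% of all genes passed (18.5% lower), and the median was -0.40. SDH2 read 121, 118 and 119.8 CPM in E49K and 222, 224 and 219 in rad6Δ, far apart (-0.89 ± 0.08, adjusted p = 8.45e-09). CYC7 was lower by 0.91, QCR10 by 0.67 and QCR8 by 0.64 on the log2 scale, none with overlap. P47T was lower at 17 members and higher at 0, where 52.3% of all genes passed (26.4% lower), with SDH2 (-0.81 ± 0.08), QCR2 (-0.68 ± 0.07) and ATP14 (-0.66 ± 0.08) the furthest apart. At an unadjusted p under 0.05, 1 member was higher in P47T and 0 in E49K. DESeq2 called 0 members higher in both, where 1471 of all 5630 genes were higher in P47T and 1080 in E49K. P43L was lower than rad6Δ at 7 members and higher at 5, where 49.1% of all genes passed (25.2% lower and 23.9% higher). CYT1 (0.43 ± 0.07, adjusted p = 3.36e-05) and ATP17 (0.40 ± 0.08, adjusted p = 4.68e-04) were the highest in P43L, and ATP14 (-0.47 ± 0.08, adjusted p = 8.77e-05) and QCR2 (-0.40 ± 0.07, adjusted p = 6.09e-05) the lowest. With scaling by library totals alone the P43L split was 3 higher and 7 lower.

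Read across the 5 mutants, the members fell into a few patterns. How many of all genes tested show each pattern was not counted, and every comparison with WT uses the same WT libraries. SDH5 and INH1 were lower than WT in all 5, although in P43L neither call held in every run without 1 library. CYT1, QCR6 and ATP17 were lower in all but P43L, and ATP19 in all but bre1Δ. For 9 members no mutant passed against WT: QCR7, COX7, COX9, COX12, COX13, ATP1, ATP2, ATP7 and STF1. Of these COX9, COX12 and COX13, of complex IV, had log2 fold changes between -0.25 and 0.08 in every strain. Opposite directions were called in different mutants for 4 genes. SDH1 rose in rad6Δ (0.24) and P43L (0.46) and fell in E49K (-0.27). SDH2 rose in rad6Δ (0.40) and fell in bre1Δ (-0.22), P47T (-0.41) and E49K (-0.49). QCR2 rose in rad6Δ (0.28) and fell in P47T (-0.40) and E49K (-0.30), and CYC1 rose in bre1Δ (0.37) and fell in P43L (-0.35) and E49K (-0.39). The direct comparisons of E49K with P43L for SDH1 and with rad6Δ for SDH2 and QCR2 passed, at -0.73, -0.89 and -0.58, as did that of bre1Δ with rad6Δ for CYC1.

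The members with an alternative isoform behaved as follows. COX5A and COX5B encode the aerobic and the low-oxygen form of the same complex IV subunit. COX5A fell in P43L, P47T and E49K, by 0.24, 0.37 and 0.34, and stood at 0.13 in rad6Δ and -0.09 in bre1Δ without passing. COX5B read 210.4, 241 and 253 CPM in WT, 129.98, 119 and 152 in rad6Δ, 162, 149 and 124 in bre1Δ and 168, 116 and 143 in E49K. It fell in rad6Δ (-0.82 ± 0.13, adjusted p = 6.32e-05), bre1Δ (-0.69 ± 0.14, adjusted p = 4.95e-04) and E49K (-0.72 ± 0.13, adjusted p = 6.39e-04), with no overlap with WT in any of them. The low-oxygen form was thus lower in both deletion strains, where the aerobic form did not pass. CYC7 fell in P47T and E49K, and CYC1 in P43L and E49K. In bre1Δ CYC7 read 78.0, 61.5 and 40.7 CPM, a wide spread (-0.37 ± 0.21, adjusted p = 0.181).

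Around the members, 84 related genes were read from 11 lists of regulators, assembly factors, carriers, mitochondrially encoded subunits and side enzymes. Against WT, 25 fell and 8 rose in E49K, 14 fell and 7 rose in P47T, 2 fell and 7 rose in P43L, 25 fell and 13 rose in bre1Δ and 27 fell and 15 rose in rad6Δ. The share lower was 32.1% in rad6Δ (24.8% of all genes), 29.8% in bre1Δ (22.1%), 29.8% in E49K (16.1%), 16.7% in P47T (13.7%) and 2.38% in P43L (6.18%). The share higher was 17.9% in rad6Δ (24.8% of all genes), 15.5% in bre1Δ (22.3%), 9.52% in E49K (15.2%), 8.33% in P47T (14.2%) and 8.33% in P43L (5.95%). The 7 subunits encoded in the mitochondrial genome included 5 that fell in E49K and 4 in P47T. ATP6, subunit a of ATP synthase, read 95.03, 96.8 and 85.3 CPM in E49K and 91.3, 103 and 102 in P47T against 245, 278 and 309 in WT (-1.58 ± 0.37, adjusted p = 0.00724, and -1.49 ± 0.37, adjusted p = 0.0113). COX3 read 501, 592 and 597 and 610.2, 643 and 627 CPM against 877, 846 and 828 (-0.59 ± 0.13, adjusted p = 0.00225, and -0.44 ± 0.13, adjusted p = 0.0173). These values lay below WT in all libraries, and the COX3 call in P47T was lost without WT replicate 1 or P47T replicate 1. ATP8 was also called in E49K, but not without WT replicate 1 or E49K replicate 1 or 3. COX1 and COB fell in both strains with a wide spread. In E49K the COX1 call was lost in 5 of 6 runs without 1 library. COB stood at -1.08 ± 0.37 in E49K (adjusted p = 0.0415) and -1.16 ± 0.37 in P47T (adjusted p = 0.0352), calls that did not hold in any of the runs without 1 library (adjusted p up to 0.125 in E49K and 0.101 in P47T). OLI1 did not pass in any mutant, and COX2 did not pass in E49K or P47T (0.21 ± 0.18 and 0.27 ± 0.18). All genes of the mitochondrial genome took 1.56% to 1.61% of the counts in WT, 1.04% to 1.19% in E49K and 1.03% to 1.164% in P47T. Mitochondrial messages of yeast lack the long poly(A) tails that the library kit selects, so these are reads that came through the selection, and their part in the differences was not tested.

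Of the regulators, HAP4, the limiting subunit of the CCAAT-binding complex, read 314, 347 and 287 CPM in rad6Δ, 358, 380.4 and 367 in E49K and 382, 399 and 418 in P47T against 429, 469 and 400.2 in WT. It fell in rad6Δ (-0.45 ± 0.08, adjusted p = 1.37e-04), fell in E49K (-0.23 ± 0.08, adjusted p = 0.0374) and stood at -0.12 ± 0.08 in P47T (adjusted p = 0.316) and 0.00 ± 0.08 in bre1Δ. The E49K call was lost without WT replicate 1 or 2 or any 1 of the E49K libraries, with an adjusted p up to 0.18. HAP2, its DNA-binding partner, fell in rad6Δ (-0.76 ± 0.12, adjusted p = 1.50e-05) and bre1Δ (-0.61 ± 0.12, adjusted p = 3.13e-04) and was at -0.28 ± 0.11 in E49K (adjusted p = 0.0578). HAP3 and HAP5 passed in no mutant. HAP1 rose in P43L (0.52 ± 0.10, adjusted p = 0.003), P47T (0.28 ± 0.10, adjusted p = 0.0377) and E49K (0.30 ± 0.10, adjusted p = 0.0242), the last 2 of which did not pass with scaling by library totals alone (adjusted p = 0.234 and 0.0690), and fell in rad6Δ (-0.24 ± 0.10, adjusted p = 0.0448). Its calls in rad6Δ and P47T were each lost in 5 of 6 runs without 1 library, and that in E49K in 4.

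ROX1, the repressor of low-oxygen genes, fell in rad6Δ (-0.56 ± 0.13, adjusted p = 0.00138), bre1Δ (-0.45 ± 0.14, adjusted p = 0.0105) and E49K (-0.64 ± 0.13, adjusted p = 0.00118). Its bre1Δ call was lost without WT replicate 1 (adjusted p = 0.0577). Of the 6 low-oxygen genes listed, 4 rose and 1 fell in E49K, 5 rose and 1 fell in bre1Δ, 4 rose and 1 fell in rad6Δ, 3 rose in P47T and 2 rose in P43L. Over all genes tested, 15.2% were higher in E49K, 22.3% in bre1Δ, 24.8% in rad6Δ, 14.2% in P47T and 5.95% in P43L. With scaling by library totals alone AAC3 did not pass in E49K, nor HEM13 and TIR1 in bre1Δ, nor TIR1 in rad6Δ. The AAC3 call in E49K was also lost without WT replicate 1 or E49K replicate 3. TIR1 was lost in rad6Δ without WT replicate 2 or 3 or any 1 of the rad6Δ libraries, in bre1Δ when replicate 2 or 3 of either strain was left out, and in P43L when P43L replicate 1 or WT replicate 2 or 3 was. ANB1, a translation factor of low-oxygen cells, read 35.5, 39.2 and 33.6 CPM in E49K, 51.3, 40.6 and 62.2 in bre1Δ and 50.8, 43.2 and 40.997 in rad6Δ against 18.4, 24.0 and 22.4 in WT (0.75 ± 0.13, 1.24 ± 0.13 and 1.07 ± 0.13), all without overlap. The gene that fell in E49K, bre1Δ and rad6Δ was COX5B. HEM13 of heme synthesis rose in P47T by 0.61 ± 0.08 (adjusted p = 4.08e-05), where ROX1 was at 0.00. In P47T, HEM13 was thus higher while ROX1 did not pass.

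Among assembly factors, CBP4, needed for assembly of complex III, read 30.7, 25.3 and 29.8 CPM in E49K against 50.2, 51.6 and 57.1 in WT (-0.88 ± 0.10, adjusted p = 5.24e-06) and was called lower in all 5 mutants, as SDH5 and INH1 were; in P43L its adjusted p was 0.0461, and that call was lost without any 1 of the WT libraries, without P43L replicate 1 or 3 and with the replicate block, no filter, DESeq2's size factors or library totals alone (adjusted p = 0.0666, 0.0524, 0.0510 and 0.0560). CBP6 of the same pathway fell in rad6Δ, bre1Δ and E49K, by 0.91, 0.70 and 0.46. Of the 19 complex IV assembly genes, 6 fell in E49K (16.1% of all genes fell there), 5 fell and 2 rose in rad6Δ (24.8% of all genes each way), 5 fell and 1 rose in bre1Δ (22.1% of all genes fell and 22.3% rose), and 1 fell in P47T (13.7% of all genes fell). Among 11 genes of ubiquinone synthesis, 1 fell and 1 rose in E49K and in P47T, 5 fell in rad6Δ, 4 fell and 1 rose in bre1Δ, and 1 rose in P43L. The shares of all genes that fell were 24.8% in rad6Δ, 22.1% in bre1Δ, 16.1% in E49K and 13.7% in P47T. Those that rose were 22.3% in bre1Δ, 15.2% in E49K, 14.2% in P47T and 5.95% in P43L. NDE1, the external NADH dehydrogenase, fell in E49K (-0.48 ± 0.09, adjusted p = 5.49e-04) and P47T (-0.32 ± 0.09, adjusted p = 0.0112) and rose in rad6Δ (0.36 ± 0.09, adjusted p = 0.00201), the same directions as SDH2. The NDE1 call in P47T was lost without WT replicate 1 (adjusted p = 0.0640).

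Most members are short genes, and 3 libraries carried a shift of short genes. The 29 members under 600 bases of coding length sat above their strain's mean by 0.19 (median log2 deviation) in bre1Δ replicate 1, 0.16 in P43L replicate 2 and 0.11 in P47T replicate 3. All 926 nuclear open reading frames under 600 bases sat above it in the same libraries, by 0.12, 0.13 and 0.09. ATP1 and ATP2, both long, sat below by 0.16, 0.14 and 0.17, but long genes as a class did not. The 12 long members had medians of -0.01, -0.01 and -0.06 in these libraries. The 4587 long reading frames stood at -0.02, -0.02 and -0.01. In WT, rad6Δ and E49K no library's short members deviated by more than 0.04. In E49K against WT the median log2 fold change was -0.40 for the 29 short and -0.42 for the 12 long members, and -0.05 for all 926 short reading frames. In P47T against WT the short and long members stood at -0.33 and -0.40 and in bre1Δ at -0.21 and -0.15, with all short reading frames at 0.00 in both. In P43L against WT the short members stood at -0.13, the long ones at 0.02 and all short reading frames at -0.11. In P47T against P43L the short members stood at -0.15, the long ones at -0.39 and all short reading frames at 0.11. The part of this shift in the members' calls was not tested beyond leaving out libraries. Without bre1Δ replicate 1 the bre1Δ count against WT went from 15 to 22, without P43L replicate 2 the P43L count from 8 to 14, and without P47T replicate 3 the P47T count from 23 to 26. How many of all genes passed in these runs is not given here.

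**Figure D5:**
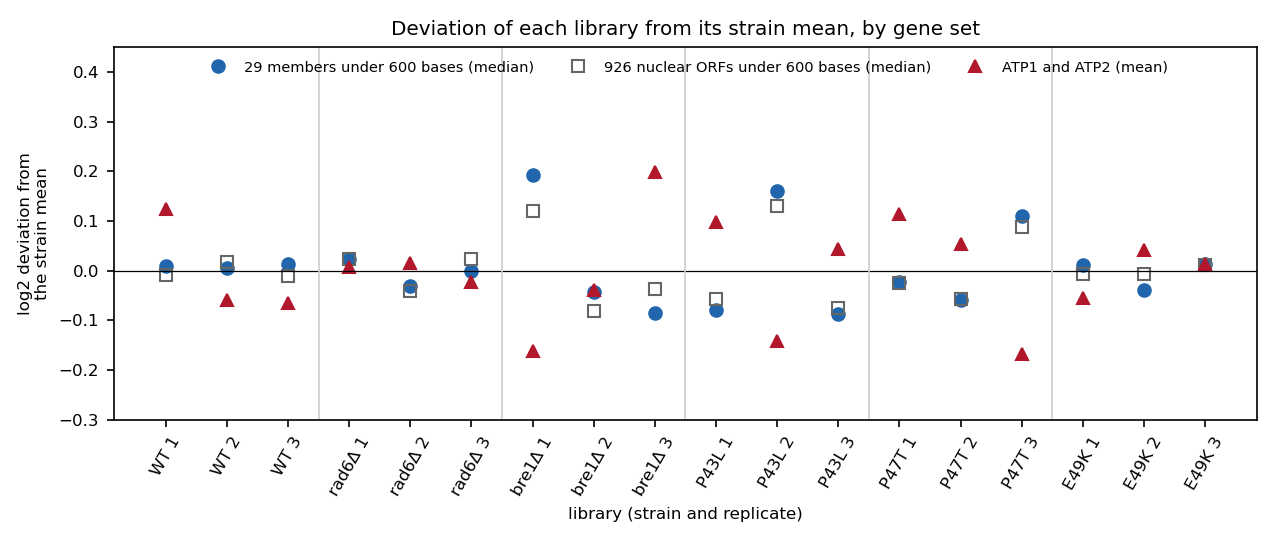
Deviation of each library (horizontal axis) from the mean of its strain, in log2 CPM, for the 29 members under 600 bases (circles, median), all 926 nuclear open reading frames under 600 bases (squares, median) and the 2 long genes ATP1 and ATP2 (triangles, mean). Circles and squares rise together in bre1Δ replicate 1, P43L replicate 2 and P47T replicate 3, where the triangles are below 0. The triangles show these 2 genes only and not long genes as a class.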

How the data were processed

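Poly(A)-selected RNA of 18 cultures, 3 for each of 6 strains, was sequenced as single reads of 50 bases with a strand-specific kit, per the labels' protocols. The authors deposited raw counts per gene. The submitters' processing notes name cutadapt 1.16, STAR 2.6.1b, featureCounts 1.6.3, DESeq2 1.20 and the builds sacCer3 and R64. How strand and reads with several matches were counted is not given in the sources used here. A second deposited table, of regularized log values, was not used here.

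The counts were tested with edgeR 4.0.16 (R 4.3.3), by the quasi-likelihood test with trimmed-mean scaling (factors 0.896 to 1.07) in 1 fit to all 18 libraries. The low-count filter removed 116 of 5746 genes, and p-values were adjusted by the Benjamini-Hochberg method over the 5630 left, with a threshold of 0.05. The fit had 12 residual degrees of freedom and a biological coefficient of variation of 8.55%. Libraries held 5065845 to 11396251 counts. Levels are CPM computed from the scaled totals.

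The 41 members, the related lists and the comparisons were chosen with earlier results of these data known. All members could be named. Values per library were given for the called members with the lowest and highest fold changes in each comparison, for paired isoforms, and for up to 4 genes of each related list, by lowest adjusted p. QCR9, COX6, ATP14, ATP17, ATP1, ATP2 and other genes printed beyond that rule were chosen after their values were seen. The 3 comparisons with the strain lacking RAD6 as reference for the substitutions, and the alternative without 3 libraries, were also added after seeing the data. Other alternatives were DESeq2 1.42.0, its size factors, library totals alone, no filter, nuclear reading frames alone, a fit to the 2 strains compared, a replicate block and leaving out each library. Cultures of 1 strain were grown separately, per the series' design text, and p-values measure the spread between them.

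Upstream sequences came from the R64 reference genome.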

Additional observations from a re-analysis of the deposited data

How the results depend on the processing

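No member's called direction reversed under any alternative. Of 201 calls over 12 comparisons, DESeq2 kept 197, its size factors in edgeR 198, no filter 199, nuclear reading frames alone 198, library totals alone 187, fits to the 2 strains compared 182, and omission of the 3 libraries that stand apart (chosen after seeing the data) 188. Counts of called members moved by over 1.5 times in these cases: E49K against P47T from 8 to 2 with library totals alone, bre1Δ against rad6Δ from 11 to 5 in a fit to those 2 strains and to 7 without the 3 libraries, rad6Δ against WT from 9 to 14 in a fit to those 2 strains, and P43L against WT from 8 to 18 without the 3 libraries. In the fit to rad6Δ and WT alone, 1476 of all 5609 genes tested were higher and 1552 lower. In the fit to bre1Δ and rad6Δ alone, 459 of all 5607 were higher and 289 lower. How many of all genes passed in runs that left out libraries is not given here or below. The cause of the moves in the members' counts was not tested.

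Leaving out 1 library at a time gave 26 to 28 called members for E49K against WT, 18 to 26 for P47T, 1 to 14 for P43L, 11 to 22 for bre1Δ and 7 to 10 for rad6Δ. The ranges were 6 to 14 for bre1Δ against rad6Δ, 18 to 22 for E49K against P43L, 10 to 17 for P47T against P43L and 3 to 7 for E49K against P47T. Against rad6Δ they were 24 to 26 for E49K, 15 to 21 for P47T and 9 to 14 for P43L. The highest bre1Δ counts, against WT and rad6Δ, came without bre1Δ replicate 1.

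Replicate numbers did not pair the samples: deviations of same-numbered libraries from their strain means correlated at a median of -0.02 over 45 pairs (-0.42 to 0.29). With the replicate block the counts were 29 for E49K, 21 for P47T, 7 for P43L, 14 for bre1Δ and 9 for rad6Δ against WT, 10 for bre1Δ against rad6Δ, 20 for E49K and 14 for P47T against P43L, and 7 for E49K against P47T, and 27, 17 and 11 for E49K, P47T and P43L against rad6Δ.

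Library totals alone moved the median log2 fold change of all genes to -0.13 in P47T and -0.11 in bre1Δ, and that of the members to -0.45 and -0.28. The split of all genes called also moved between mutants, to 571 higher and 258 lower for E49K against P47T, 356 and 770 for bre1Δ against rad6Δ, 563 and 1003 for P47T against P43L, and 1056 and 1816 for P47T against rad6Δ. Every member had at least 99 counts in every library, and each strain 3 libraries. The count of the 84 related genes called against WT moved by over 1.5 times in P43L and P47T. In P43L it went from 9 to 18 without the 3 libraries and to 14 without P43L replicate 2. It fell to 3 there without WT replicate 2, WT replicate 3 or P43L replicate 1. In P47T it went from 21 to 13 without P47T replicate 1 and to 12 without P47T replicate 2.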
